A study of Mus musculus with 12 samples.

Results

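The cell cycle genes described here are 40 mouse genes that dividing cells switch on, taken by name for their roles in DNA replication and mitosis. They stand among the 19760 genes held by either of the count tables of the study, with 15361 genes in the kidney table and 18145 genes in that of F4/80+ cells. All 40 were in the kidney table and 38 in the F4/80+ table, which held no row for Ccne1 or Plk1. By role, 12 act in the entry to S phase and in DNA replication (Ccne1, Ccne2, Mcm2, Mcm3, Mcm4, Mcm5, Mcm6, Mcm7, Pcna, Rrm1, Rrm2 and Tyms). A further 27 act from G2 to the end of mitosis, and 1, Ezh2, was put in neither set.

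The mice were made with CRISPR-Cas9 and were homozygous for either the Arg-encoding major allele (Arg/Arg) or the Trp-encoding minor allele (Trp/Trp) of the polymorphism rs3184504, which lies in the adaptor gene Sh2b3. Every animal had received angiotensin II, a hormone that raises blood pressure, for 4 weeks, and no group without it was analysed here. Whole kidneys and F4/80+ cells of other kidneys were sequenced as polyadenylated RNA, with 3 biological replicates of each genotype in each sample type. The F4/80+ cells were isolated over a Percoll gradient with magnetic beads against F4/80, the macrophage surface protein encoded by Adgre1. Sex, age, strain background and any pooling of animals are not stated in the labels.

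A cell that divides first licenses its origins of replication with the MCM helicase, a ring of the products of Mcm2 to Mcm7, and then copies its DNA with the help of the sliding clamp Pcna. Ribonucleotide reductase (Rrm1 and Rrm2) and thymidylate synthase (Tyms) supply the nucleotides. Cyclin-dependent kinase 1 (Cdk1) with the A and B cyclins (Ccna2, Ccnb1, Ccnb2) then drives mitosis, and the anaphase-promoting complex with its activator Cdc20 ends it. Transcription of replication genes is controlled mainly through E2F sites, and that of mitosis genes mainly through CCAAT boxes and an element called the cell cycle genes homology region (CHR). The adult kidney holds few dividing cells, and tubule cells can return to the cycle after injury.

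The promoters of 4 members are shown, a pair from each role, because the levels of these genes are described below and the elements in them differ. The windows are the 250 bases before the RefSeq start of the gene on GRCm38.p6, 5′ to 3′ on the strand of the gene. The starts differ from those of the gene annotation used for exon lengths. There Cdk1 starts at 69352938, so the end of its window, with the last CHR marked, lies inside the gene. Mcm5 starts there at 75109569 and Mcm6 at 128359664, beyond the ends of their windows. Capitals mark 3 kinds of element, each searched on both strands. CHR was spelled as TTTGAA and also as TTTAAA. The CCAAT box appears as ATTGG on the other strand. The E2F core was spelled as TTCCCGC and also as TTCGCGC and also as TTGCCGC and also as TTGGCGC, and cores on opposite strands may overlap each other.
Cdk1, chr10:69352913-69353162, minus strand: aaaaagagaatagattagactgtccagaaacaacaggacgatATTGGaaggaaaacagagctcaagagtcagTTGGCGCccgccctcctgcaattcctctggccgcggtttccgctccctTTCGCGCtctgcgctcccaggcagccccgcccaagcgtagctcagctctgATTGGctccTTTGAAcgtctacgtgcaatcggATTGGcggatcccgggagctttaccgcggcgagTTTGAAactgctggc
Ccnb2, chr9:70421555-70421804, minus strand: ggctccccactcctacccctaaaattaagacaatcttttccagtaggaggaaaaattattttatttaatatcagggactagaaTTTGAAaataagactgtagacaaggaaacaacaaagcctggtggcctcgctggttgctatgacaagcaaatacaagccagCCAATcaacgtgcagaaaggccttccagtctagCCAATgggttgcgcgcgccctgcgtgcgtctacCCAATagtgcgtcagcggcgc
Mcm5, chr8:75109259-75109508, plus strand: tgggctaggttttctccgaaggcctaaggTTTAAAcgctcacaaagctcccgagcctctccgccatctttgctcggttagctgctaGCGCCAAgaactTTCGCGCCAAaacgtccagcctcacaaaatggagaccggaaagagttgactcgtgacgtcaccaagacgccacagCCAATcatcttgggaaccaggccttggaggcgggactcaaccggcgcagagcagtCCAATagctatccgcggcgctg
Mcm6, chr1:128359706-128359955, minus strand: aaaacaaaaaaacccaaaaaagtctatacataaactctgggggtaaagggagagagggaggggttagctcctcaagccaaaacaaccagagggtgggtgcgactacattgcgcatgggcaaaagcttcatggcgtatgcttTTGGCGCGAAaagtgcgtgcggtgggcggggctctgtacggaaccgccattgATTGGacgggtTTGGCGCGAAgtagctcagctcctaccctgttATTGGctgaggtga
In the windows shown, Cdk1 has 2 CHR, 3 CCAAT and 2 E2F cores, and Ccnb2 has 1 CHR, 3 CCAAT and no E2F core. Mcm5 has 1 CHR, 2 CCAAT and 3 E2F cores, and Mcm6 has no CHR, 2 CCAAT and 4 E2F cores.

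Promoters were found in RefSeq for 33 of the 40 members, with 36 starts in all, and the full windows searched ran from 250 bases before to 50 bases after the start. CHR was in 22 of 24 promoters of mitosis members (91.7%), in 4 of 11 of replication members (36.4%) and in 27.6% of all 32851 promoters of that length. E2F cores were in 5 of 24 promoters of mitosis members (20.8%), in 7 of 11 of replication members (63.6%) and in 9.57% of all promoters. CCAAT was in 83.3% of promoters of mitosis members and 81.8% of those of replication members, against 37.4% of all promoters. These are matches of letters and not measured binding. Among the mitosis members, Bub1 and Nusap1 had no CHR in the window. Mcm4, Ccna2, Aurkb, Ccne2, Kif20a, Tpx2 and Smc4 were not matched.

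Libraries held 19.6 to 54.7 M counts in kidney and 35.9 to 51.6 M in F4/80+ preparations (M for mega). Mitochondrial transcripts took 7.86 to 9.35% of the kidney counts and 70.1 to 83.6% of the F4/80+ counts. The 13733 protein-coding genes of the nucleus present in both tables had 17.8 to 49.9 M counts per kidney library but 6.88 to 11.1 M per F4/80+ library, and levels below are in CPM, counts per library scaled to a total of 1000000 over these genes. Macrophage markers were not higher throughout in the F4/80+ libraries than in kidney. Adgre1 stood at 1.26 to 16.7 CPM in them and at 4.12 to 8.33 in kidney, and Csf1r, the macrophage growth factor receptor, at 15.7 to 29.3 against 58.1 to 68.3. Lrp2, a gene of proximal tubule cells, stood at 1491 to 5411 CPM in F4/80+ libraries and at 2290 to 2740 in kidney. The summed level of 10 macrophage genes was 48.5 and 40.1 CPM in Arg/Arg F4/80+ replicates 2 and 3 and 121 to 210 CPM in the other F4/80+ libraries. In kidney, Trp/Trp replicate 1 stood apart, with a summed level of 6 B and plasma cell genes of 90.3 CPM against 4.3 to 5.7 in the other kidney libraries. Its sums of 4 fat genes (260 against 85.1 to 105 CPM), 6 fibroblast and pericyte genes (610 against 275 to 302) and 8 T and NK cell genes (17.9 against 5.1 to 10.5) were also the highest. The libraries of isolated cells are therefore called F4/80+ preparations, and results are given with and without the libraries that stood apart where that changes them.

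Per kilobase of exon, Pcna had the highest level among the members in both sample types, at 21.2 ± 1.27 CPM per kb in kidney and 24.8 ± 5.86 in F4/80+ preparations (SD, n = 6). Smc4, which encodes a core subunit of condensin and is used beyond mitosis to organise chromosomes, came next at 6.66 ± 0.35 and 9.44 ± 1.84 CPM per kb. In kidney these were followed by Mcm7 (6.03 ± 0.44) and Mcm6 (5.34 ± 0.50 CPM per kb), whose ranges of mean ± SD do not separate them. The cyclins and kinases of mitosis were far lower than these. So were some replication members in kidney, with Mcm3 at 1.34 ± 0.23, Ccne2 at 0.74 ± 0.16 and Ccne1 at 0.14 ± 0.06 CPM per kb. Ccnb2 had 1.36 ± 0.52, Ccna2 0.69 ± 0.27, Cdk1 0.42 ± 0.15, Ccnb1 0.30 ± 0.08 and the checkpoint kinase Bub1 0.13 ± 0.05 CPM per kb in kidney. Mki67, the source of the proliferation antigen Ki-67, had 0.79 ± 0.26 CPM per kb in kidney and 1.60 ± 0.68 in F4/80+ preparations. Pcna alone made up 28 ± 0.81% of the summed CPM of the replication members in kidney and 34.8 ± 3.84% in F4/80+ preparations (SD, n = 6).

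In kidney, the mitosis members varied between replicates together, and the replication members much less. To compare genes of different levels, each level was divided by the mean of the gene over the 6 kidney libraries. The median of this relative level over the 27 mitosis members was 0.80, 0.76 and 1.19 in Arg/Arg replicates 1, 2 and 3 and 1.39, 1.00 and 0.88 in Trp/Trp replicates 1, 2 and 3, a range of 1.84-fold. Over the 12 replication members it lay between 0.92 and 1.09, a range of 1.18-fold. Arg/Arg replicate 3 was the highest of its group for 25 of 27 mitosis members, all but Smc2 and Smc4, and Trp/Trp replicate 1 was the highest of its group for 23 of 27, all but Cenpe, Kif20b, Nusap1 and Smc2. Within the Arg/Arg kidneys alone the median thus ran from 0.76 to 1.19, and within the Trp/Trp kidneys from 0.88 to 1.39. In bulk tissue, fewer dividing cells and less of these transcripts per cell cannot be told apart.

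**Figure D1:**
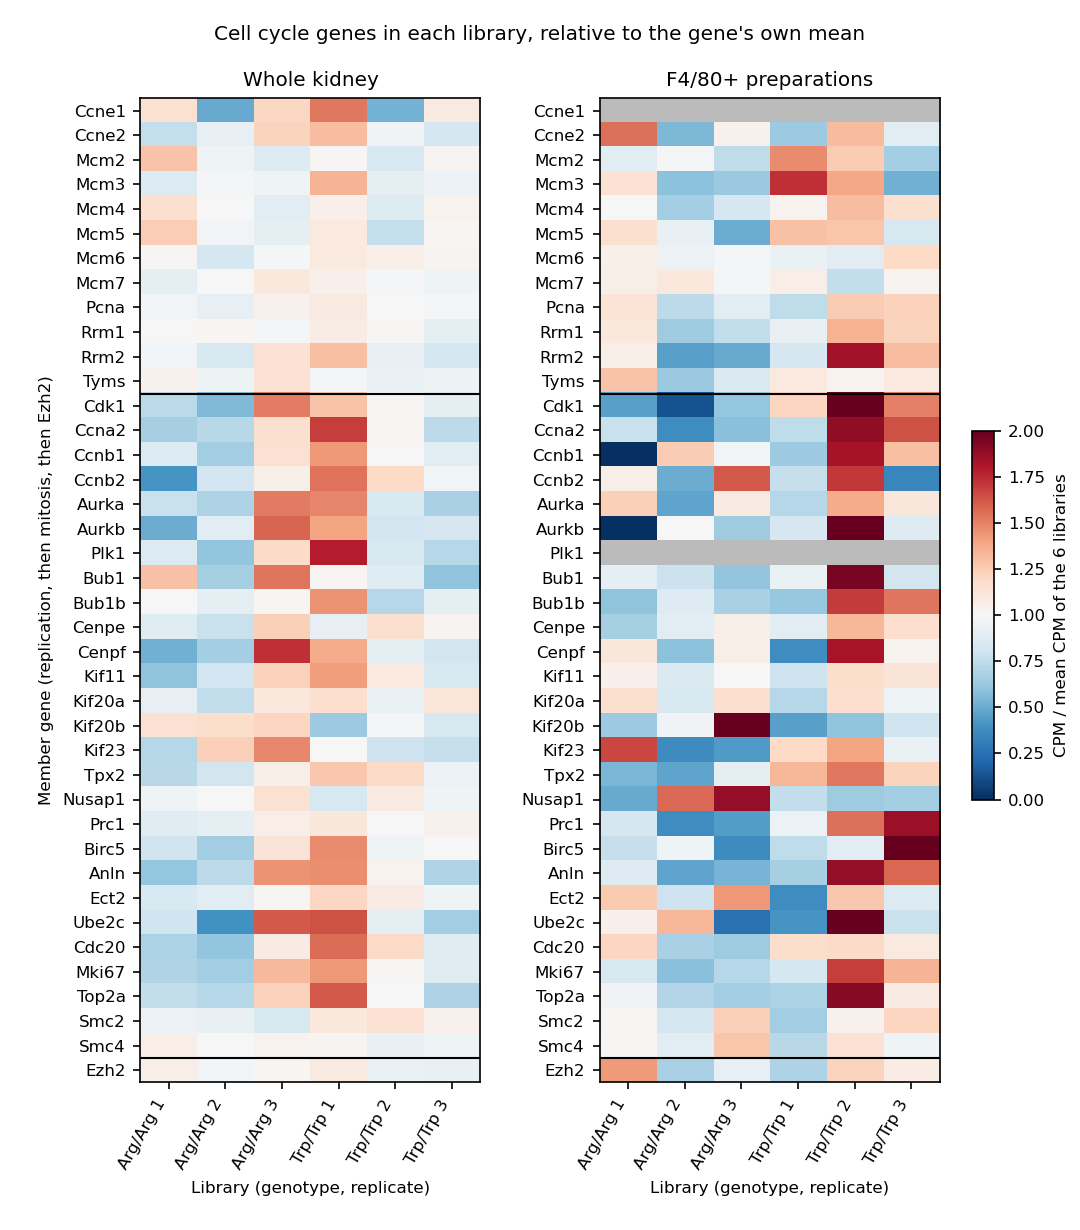
Level of each of the 40 members in each library, in CPM divided by the mean CPM of that gene over the 6 libraries of the sample type (colour scale from 0 to 2, capped at 2). Grey rows mark Ccne1 and Plk1, which the F4/80+ table did not hold. Red cells gather in Arg/Arg replicate 3 and Trp/Trp replicate 1 of kidney and in Trp/Trp replicate 2 of the F4/80+ preparations, mostly in mitosis genes.

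Mki67 shows this pattern. Its levels were 5.56, 5.17 and 10.6 CPM in Arg/Arg kidneys and 11.5, 8.08 and 6.98 CPM in Trp/Trp kidneys. The highest Arg/Arg library exceeded 2 of the 3 Trp/Trp libraries, so the groups overlapped. Top2a, the DNA topoisomerase that untangles sister chromatids, had 4.06, 3.85 and 6.63 CPM in Arg/Arg and 8.73, 5.41 and 3.72 CPM in Trp/Trp kidneys, with the same libraries on top. Cenpf, a kinetochore protein gene, spanned 1.44, 1.82 and 4.79 CPM within the Arg/Arg group alone. Some marker sums of these libraries differed and others went together. In Arg/Arg replicate 3 the sum of B and plasma cell genes was 4.3 CPM and that of macrophage genes 138 CPM, both the lowest of the kidney libraries. In Trp/Trp replicate 1 they were 90.3 and 251 CPM, both the highest. Sums of monocyte and neutrophil genes and of fat genes were likewise lowest in the first and highest in the second. Kidney injury genes summed to 850 and 938 CPM in these libraries, against 690 to 823 in the other kidneys. Endothelial genes summed to 527 and 557 CPM, against 424 to 516. Proximal tubule genes were the lowest in both, at 10275 and 10440 CPM against 10954 to 11472. The part of cell makeup, immune and fat cell RNA included, in the levels of these libraries was not tested.

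**Figure D2:**
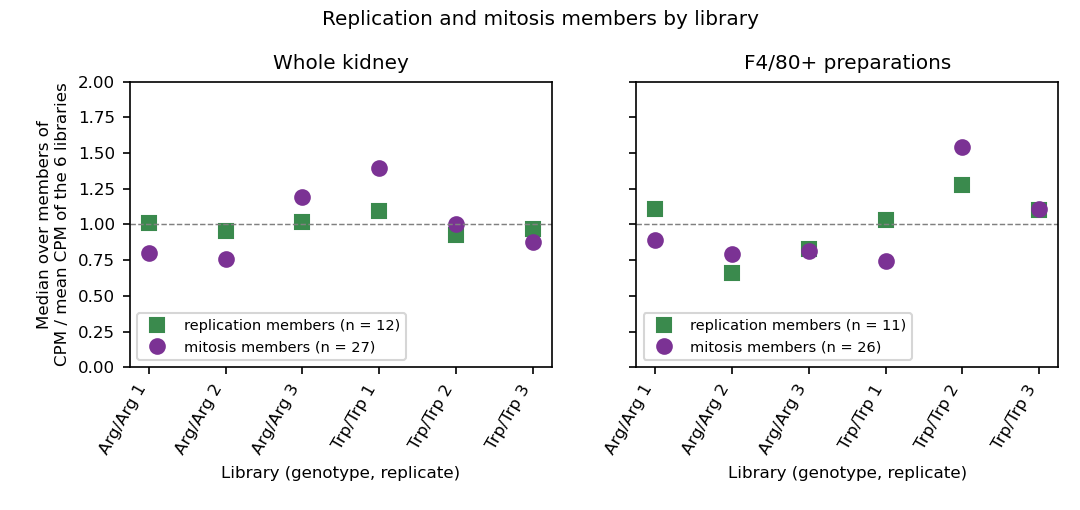
Median over members of the relative level (CPM divided by the mean CPM of the gene over 6 libraries) in each library, for replication members (squares) and mitosis members (circles). Mitosis members span 0.76 to 1.39 in kidney, where replication members stay between 0.92 and 1.09, and both sets vary in F4/80+ preparations.

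No member passed the test of genotype in kidney. With the edgeR quasi-likelihood test and Benjamini-Hochberg adjustment over 14464 genes, 0 of 40 members had an adjusted p under 0.05, and neither did any other gene (0%). DESeq2 also called 0 of 40 members, with 15 genes called in all. At an unadjusted p under 0.05 there was 1 member of 40, beside 5.71% of all genes, and with DESeq2 there were 4, beside 5.12%. On leaving out Arg/Arg replicate 3 there were 7 (Mki67, Cdc20, Kif20b, Ccnb2, Cenpf, Cdk1 and Kif11), beside 6.28% of all genes. On leaving out Arg/Arg replicate 1 there were 3, beside 4.64%, and on leaving out Trp/Trp replicate 3 there were 2, beside 6.01%. The log2 fold changes of Trp/Trp over Arg/Arg had a median of 0.11 over the members, with 28 of 40 above 0, beside a median of 0.00 and 50.6% of all genes above 0. This median was -0.04 without Trp/Trp replicate 1, when 16 of 40 were above 0, and 0.29 without Arg/Arg replicate 3.

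Among the replication members the median log2 fold change in kidney was 0.01, with 6 of 12 above 0. Mcm2 had 18.9, 14.1 and 12.8 CPM in Arg/Arg and 14.8, 12.4 and 15 CPM in Trp/Trp kidneys, a log2 fold change of -0.14 ± 0.15 (SE). Mcm5 had 7.79, 6.07 and 5.66 CPM against 6.84, 4.75 and 6.36 CPM, a log2 fold change of -0.15 ± 0.18. In both genes Arg/Arg replicate 1 was the highest library, and the groups overlapped. Mcm6 had 25.3, 20.6 and 24.4 CPM in Arg/Arg and 27.2, 26.3 and 25.6 CPM in Trp/Trp kidneys, which did not overlap. The log2 fold change of Mcm6 was 0.16 ± 0.08, with an adjusted p of 0.843. Pcna was almost level, at 49.4, 46.6 and 53.1 CPM against 55.3, 51.0 and 49.7 CPM, a log2 fold change of 0.05 ± 0.06. Rrm2, the regulated subunit of ribonucleotide reductase, had 7.76, 6.73 and 9.11 CPM against 10.4, 7.33 and 6.59 CPM, a log2 fold change of 0.03 ± 0.18. Tyms had 15.7, 14.3 and 17.3 CPM in Arg/Arg and 14.7, 14 and 14.2 CPM in Trp/Trp kidneys, a log2 fold change of -0.16 ± 0.09.

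Among the mitosis members the median was 0.21 in kidney, with 22 of 27 above 0. On leaving out each library it ran from 0.07 (Arg/Arg replicate 2 left out) to 0.54 (Arg/Arg replicate 3 left out), with 0.09 on leaving out Trp/Trp replicate 1 and 0.13 on leaving out Arg/Arg replicate 1. Ccnb2, a B-type cyclin, had 0.86, 1.68 and 2.21 CPM in Arg/Arg and 3.22, 2.51 and 2.03 CPM in Trp/Trp kidneys, a log2 fold change of 0.69 ± 0.33. Cdc20 had 1.76, 1.56 and 2.78 CPM against 4.00, 3.05 and 2.25 CPM, a log2 fold change of 0.62 ± 0.28. In both, the highest Arg/Arg library lay above the lowest Trp/Trp library. Ccnb1 and Cdk1 had log2 fold changes of 0.33 ± 0.30 and 0.21 ± 0.36, Mki67 of 0.32 ± 0.28 and Top2a of 0.30 ± 0.30. On leaving out Trp/Trp replicate 1 the value was 0.12 for Mki67 and -0.029 for Top2a, and on leaving out Arg/Arg replicate 3 it was 0.71 for Mki67 and 0.58 for Top2a. Adjusted p-values of these 6 genes in edgeR ran from 0.843 to 0.956.

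Kif20b was the member with the smallest p in kidney and went the other way. It encodes a kinesin that works at the spindle midzone and in cytokinesis. Its levels were 14.6, 14.8 and 15.3 CPM in Arg/Arg and 8.03, 12.4 and 10.6 CPM in Trp/Trp kidneys. The 3 Arg/Arg libraries lay close together and above every Trp/Trp library. The log2 fold change was -0.54 ± 0.16, with an unadjusted p of 0.0075 and an adjusted p of 0.843 in edgeR. Smc2, the partner of Smc4 in condensin, did not overlap in the other direction, with 6.48, 6.35 and 5.76 CPM in Arg/Arg and 7.57, 7.90 and 7.15 CPM in Trp/Trp kidneys (log2 fold change 0.27 ± 0.12, adjusted p = 0.843 in edgeR). In all, groups did not overlap for 3 of 40 members, beside 10.2% of all genes. Kif23, a kinesin of the central spindle, had 8.69, 15.1 and 18 CPM against 12.1, 9.67 and 9.40 CPM, a log2 fold change of -0.44 ± 0.23. Smc4 had 37.0, 34.5 and 35.8 CPM in Arg/Arg and 35.7, 32.1 and 33.1 CPM in Trp/Trp kidneys, a log2 fold change of -0.11 ± 0.06.

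**Figure D3:**
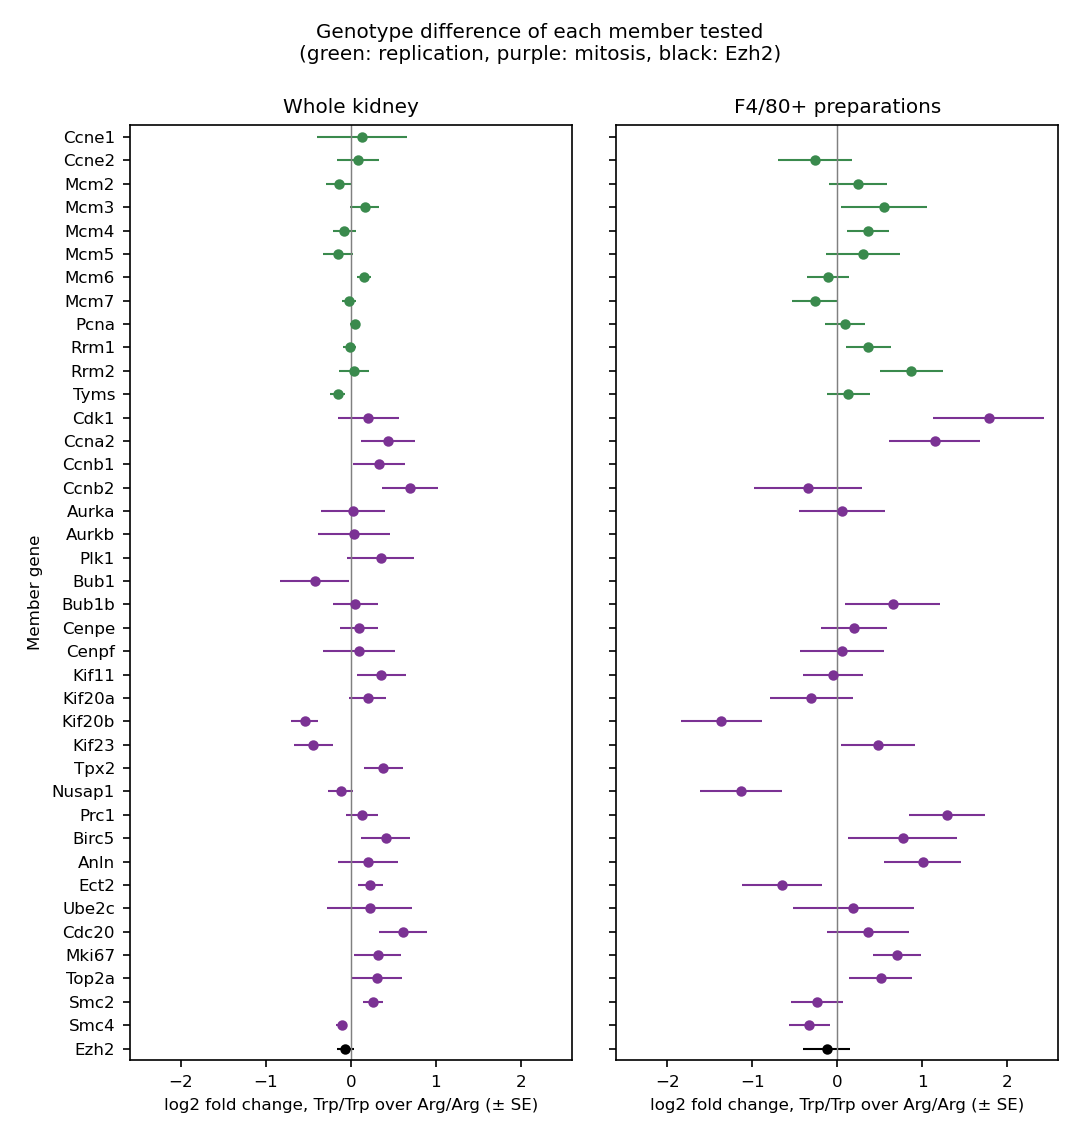
log2 fold change of Trp/Trp over Arg/Arg with its SE for each member tested, in kidney (40 members) and in F4/80+ preparations (34 members), coloured by role. Errors are wider in the F4/80+ preparations, and no member has an adjusted p under 0.05 in either panel.

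In F4/80+ preparations, other libraries were on top than in kidney. The median relative level of the 26 mitosis members in the table was 0.89, 0.79 and 0.81 in Arg/Arg replicates 1, 2 and 3 and 0.75, 1.54 and 1.11 in Trp/Trp replicates 1, 2 and 3. Trp/Trp replicate 2 was the highest of its group for 21 of 26 and Trp/Trp replicate 1 the lowest for 20 of 26. The 11 replication members had 1.11, 0.66 and 0.83 in Arg/Arg and 1.03, 1.28 and 1.10 in Trp/Trp libraries. These levels, like those of kidney above, were scaled by the CPM total alone, and the same counts over all genes are not given. A difference in scaling between libraries would enter them. Among all genes tested here, Trp/Trp lay above Arg/Arg without overlap for 7.19% and below for 3.33%. Marker sums of other cells differed between the same libraries. The summed macrophage genes stood at 147, 48.5 and 40.1 CPM in Arg/Arg replicates 1, 2 and 3 and at 121, 186 and 210 CPM in Trp/Trp replicates 1, 2 and 3. The summed proximal tubule genes stood at 6261, 12476 and 12108 CPM in Arg/Arg and at 8976, 4054 and 5835 CPM in Trp/Trp libraries. The part of cell makeup in the genotype differences below was not tested.

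No member passed the adjusted threshold between the genotypes in F4/80+ preparations. Of the 38 members in the table, 34 passed the filter on low counts, and Ccnb1, Aurkb, Bub1 and Tpx2 did not. The edgeR test over 15225 genes called 0 of 34 members at an adjusted p under 0.05 and no other gene (0%), and DESeq2 called 0 members and 11 genes. At an unadjusted p under 0.05 there were 7 of 34 members, beside 8.04% of all genes. In Trp/Trp 5 of them were higher, beside 4.43% of all genes, and 2 lower, beside 3.61%. DESeq2 gave 6. This number depended on single libraries. Leaving out Arg/Arg replicate 2 gave 1 member (Kif20b), beside 4.34% of all genes. Leaving out replicate 2 or replicate 3 of Trp/Trp gave 2, beside 5.24% and 5.15%, and leaving out Arg/Arg replicate 3 gave 3, beside 2.31%. Leaving out Arg/Arg replicate 1 gave 8 of 35 members, beside 17.5% of all genes, and leaving out Trp/Trp replicate 1 gave 8 of 34, beside 11.4%. The median log2 fold change was 0.19, with 22 of 34 above 0, beside 0.01 and 51.1% over all genes. Scaling by library totals alone moved the median of all genes to 0.23 in this table and that of the members to 0.37.

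Among the replication members in F4/80+ preparations, Rrm2 had the smallest p. It had 8.72, 3.79 and 4.11 CPM in Arg/Arg and 6.82, 15.2 and 10.8 CPM in Trp/Trp libraries. Arg/Arg replicate 1 lay above Trp/Trp replicate 1, so the groups overlapped. The log2 fold change of Rrm2 was 0.87 ± 0.37, with an adjusted p of 0.608 in edgeR. Mcm4 was the replication member whose groups did not overlap, with 15, 9.86 and 12.3 CPM in Arg/Arg and 15.3, 19.5 and 17.2 CPM in Trp/Trp libraries. Replicate 1 of each genotype lay close together, on CPM scaled by the total alone. The log2 fold change of Mcm4 was 0.36 ± 0.24, with an unadjusted p of 0.163 and an adjusted p of 0.741 in edgeR. Mcm2, Mcm5 and Pcna had log2 fold changes of 0.24 ± 0.34, 0.30 ± 0.43 and 0.09 ± 0.23, each within its SE.

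Among the mitosis members, Cdk1 had the largest log2 fold change, on few counts. It had 3, 1 and 6 counts in Arg/Arg and 13, 17 and 11 counts in Trp/Trp libraries, or 0.44, 0.13 and 0.59 against 1.17, 2.00 and 1.44 CPM. The groups did not overlap. For Cdk1 the log2 fold change was 1.78 ± 0.65, with an unadjusted p of 0.018 and an adjusted p of 0.605 in edgeR. Prc1, which bundles microtubules in the spindle midzone, also did not overlap, with 2.76, 1.26 and 1.47 CPM in Arg/Arg and 3.14, 5.17 and 6.17 CPM in Trp/Trp libraries. Its log2 fold change was 1.29 ± 0.44, with an adjusted p of 0.605 in edgeR. In the annotation 911 of its 8225 exon bases overlap exons of Rccd1 on the other strand, and the sources used here do not say whether the counting used strand. The same limit holds for other members, among them Ccna2 (510 of 4083 bases), Kif20a (1271 of 4338) and Ube2c (592 of 2600). Of the 4426 exon bases of Mcm7, 385 overlap exons on the other strand and 172 on the same strand. Mki67 had 13.7, 9.35 and 11.4 CPM in Arg/Arg and 13.3, 27.1 and 21.5 CPM in Trp/Trp libraries, a log2 fold change of 0.70 ± 0.28 with an adjusted p of 0.605 in edgeR. Trp/Trp replicate 1 fell within the Arg/Arg range. Top2a had 6.69, 4.93 and 4.50 CPM against 4.76, 13.3 and 7.48 CPM, a log2 fold change of 0.51 ± 0.37. Anln, the cytokinesis scaffold anillin, had 3.05, 1.64 and 1.86 CPM against 2.33, 6.58 and 5.51 CPM, a log2 fold change of 1.00 ± 0.46 with an adjusted p of 0.618 in edgeR. Groups did not overlap for 3 of 34 members, beside 10.5% of all genes.

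For the mitosis members with the smallest p in the other direction, single Arg/Arg libraries stood apart. Kif20b had 16.7, 25.3 and 67.1 CPM in Arg/Arg and 11.9, 15.6 and 21 CPM in Trp/Trp libraries. The highest value belonged to Arg/Arg replicate 3. The log2 fold change was -1.36 ± 0.48 (adjusted p = 0.605 in edgeR) and -0.51 without that library. Nusap1, a microtubule-binding protein gene of the spindle, had 3.34, 10.6 and 12.7 CPM in Arg/Arg and 5.12, 4.35 and 4.46 CPM in Trp/Trp libraries. Here Arg/Arg replicate 1 was the lowest library of all, and the log2 fold change was -1.13 ± 0.48 (adjusted p = 0.609 in edgeR). Ect2, a gene of cytokinesis, had a log2 fold change of -0.65 ± 0.47 and Smc4 of -0.33 ± 0.24. Kif20b was thus the member with a lower level in Trp/Trp at an unadjusted p under 0.05 in both sample types, without passing the adjusted threshold in either. On leaving out Arg/Arg replicate 3 of the F4/80+ preparations it was no longer among the members under 0.05 there.

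Between sample types, members were called in both directions. All 38 members in both tables were tested over the 12 libraries, and 18 had an adjusted p under 0.05 in edgeR. Of these 10 were higher and 8 lower in F4/80+ preparations, beside 64.3% of all 13578 genes (32.3% higher and 32% lower). The count was 15 to 20 on leaving out each library in turn, beside 59.8 to 67.6% of all genes. The cell type, the isolation, the share of mitochondrial RNA and the table cannot be told apart in this comparison. Single libraries of the sample types did not overlap for 4 of 38 members (10.5%), beside 42.2% of all genes. The median log2 fold change of F4/80+ preparations over kidney was -0.06 over the members, with 19 of 38 above 0, beside -0.01 and 49.7% for all genes. Scaling by library totals alone moved the median of all genes to -0.13, with 9 members called higher and 11 lower, beside 63.7% of all genes called.

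The MCM helicase subunits split. Mcm4 was higher in F4/80+ preparations, at 8.32 to 11.2 CPM in kidney (median 9.85) and 9.86 to 19.5 CPM in F4/80+ preparations (median 15.2). Its log2 fold change was 0.72 ± 0.12, with an adjusted p of 2e-04 in edgeR. Mcm5 was lower, at 4.75 to 7.79 CPM in kidney (median 6.22) and 1.57 to 4.04 CPM in F4/80+ preparations (median 3.27), which did not overlap. Its log2 fold change was -0.89 ± 0.21, with an adjusted p of 0.0018 in edgeR. Mcm7 did not overlap either, with 24.0 to 29.6 CPM in kidney (median 26.5) and 12.7 to 18.6 CPM in F4/80+ preparations (median 17.5), a log2 fold change of -0.54 ± 0.12. Mcm3 and Mcm6 were also lower, with log2 fold changes of -0.75 ± 0.25 and -0.39 ± 0.11, and Mcm6 did not pass with limma voom and sample quality weights (-0.28, adjusted p = 0.082). Mcm2, at 12.4 to 18.9 CPM in kidney (median 14.5) and 6.56 to 14.7 CPM in F4/80+ preparations (median 9.36), missed the threshold (log2 fold change -0.43 ± 0.18, adjusted p = 0.056 in edgeR). It passed on leaving out replicate 3 of the Arg/Arg kidneys (adjusted p = 0.048 in edgeR), replicate 2 of the Arg/Arg F4/80+ preparations (0.042) or replicate 1 of the Trp/Trp F4/80+ preparations (0.012), and with library totals alone, DESeq2 or limma voom (0.018 to 0.050).

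**Figure D4:**
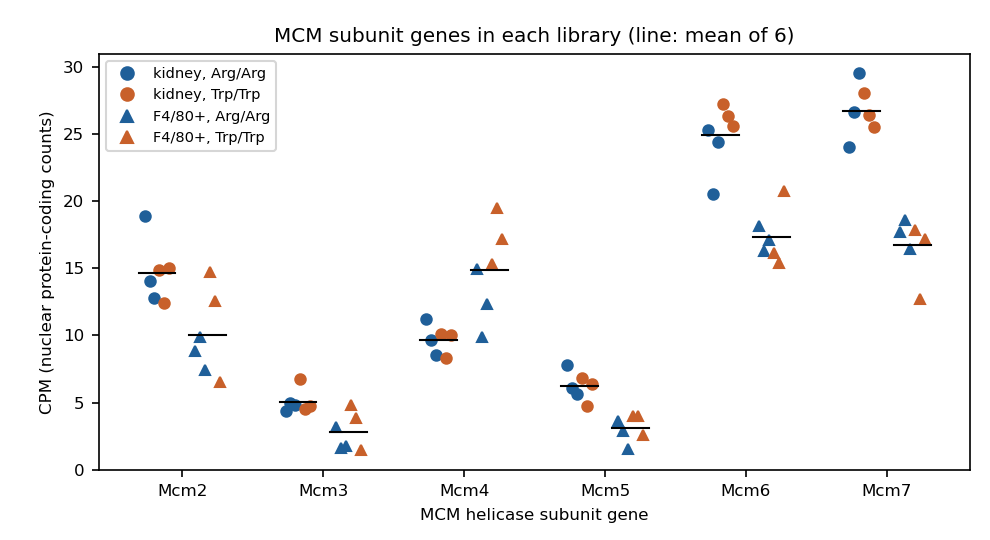
CPM of the 6 MCM subunit genes in each library, with kidney as circles, F4/80+ preparations as triangles, genotype by colour and a line at the mean of 6 libraries. The F4/80+ libraries lie above the kidney libraries on average for Mcm4 and below them for the other 5 subunits.

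The proportions of the subunits within a library show the split without any scaling between libraries. These ratios were chosen after the values were seen and carry no test. Mcm4 over Mcm2 was 0.59 to 0.69 in the kidney libraries (0.66 ± 0.03, SD, n = 6) and 1.00 to 2.62 in the F4/80+ libraries (1.59 ± 0.59). Mcm4 over Mcm5 was 1.44 to 1.75 in kidney and 3.39 to 7.88 in F4/80+ libraries, and Mcm4 over Mcm7 was 0.29 to 0.47 and 0.53 to 1.54. Mcm4 over Mcm3 was 1.5 to 2.58 and 3.17 to 11.9, and Mcm4 over Mcm6 was 0.32 to 0.47 and 0.60 to 1.27. For each of the 5 partners, every F4/80+ library lay above every kidney library, in both genotypes. The products of these genes form a ring with 1 copy of each subunit.

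Of the other replication members, Tyms and Pcna were higher and Rrm1 lower in F4/80+ preparations. Tyms had 14 to 17.3 CPM in kidney (median 14.5) and 13.1 to 26.9 CPM in F4/80+ preparations (median 22.3), a log2 fold change of 0.59 ± 0.13 with an adjusted p of 0.0010 in edgeR. Pcna had 46.6 to 55.3 CPM (median 50.3) and 44.0 to 74.6 CPM (median 60.5), a log2 fold change of 0.34 ± 0.12 with an adjusted p of 0.023 in edgeR. Its call was lost with library totals alone (0.22, adjusted p = 0.177) and on leaving out any of 5 libraries (in kidney Arg/Arg 2 and Trp/Trp 3, in F4/80+ preparations Arg/Arg 1 and Trp/Trp 2 and 3), with adjusted p-values of 0.051 to 0.057. Rrm1 had a log2 fold change of -0.31 ± 0.12 (adjusted p = 0.039 in edgeR), which was lost on leaving out any of 8 libraries (in kidney Arg/Arg 1, 2 and 3 and Trp/Trp 1 and 2, in F4/80+ preparations Arg/Arg 2 and 3 and Trp/Trp 1), with adjusted p-values of 0.060 to 0.080. It was also lost with the replicate block (0.067). Its partner Rrm2 did not pass, at 6.59 to 10.4 CPM (median 7.54) and 3.79 to 15.2 CPM (median 7.77), a log2 fold change of 0.06 ± 0.21. In all, 8 of 11 replication members tested were called, 3 higher and 5 lower (72.7%, beside 64.3% of all genes).

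Of the 26 mitosis members tested, 9 were called, 6 higher and 3 lower (34.6%, beside 64.3% of all genes). Counts were few for some of those not called. In F4/80+ libraries Bub1 had 3 to 8, Ccnb1 0 to 11 and Aurkb 0 to 17 counts. The part of low counts in this share was not tested. The 6 higher were Mki67, Smc2, Smc4, Kif11, Kif20b and Cenpe. Mki67 had 5.17 to 11.5 CPM in kidney (median 7.53) and 9.35 to 27.1 CPM in F4/80+ preparations (median 13.5), a log2 fold change of 1.08 ± 0.21 with an adjusted p of 6e-04 in edgeR. Smc2 had 5.76 to 7.90 CPM (median 6.82) and 7.90 to 15.1 CPM (median 12.5), a log2 fold change of 0.95 ± 0.16. Smc4 had 32.1 to 37.0 CPM (median 35.1) and 35.4 to 62.6 CPM (median 48.4), a log2 fold change of 0.63 ± 0.12. Both condensin core genes were thus higher. The kinesin genes Kif11 and Kif20b and the kinetochore motor gene Cenpe had log2 fold changes of 0.90 ± 0.22, 1.11 ± 0.30 and 0.64 ± 0.21, and that of Kif20b was 0.69 without Arg/Arg F4/80+ replicate 3.

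The 3 mitosis members called lower were Cdk1, Tpx2 and Ccna2. Cdk1 had 1.14 to 3.12 CPM in kidney (median 1.97) and 0.13 to 2.00 CPM in F4/80+ preparations (median 0.88). Its log2 fold change was -1.26 ± 0.36, with an adjusted p of 0.0072 in edgeR. Tpx2, which activates Aurora A at the spindle, had 1.47 to 2.58 CPM (median 2.03) and 0.51 to 1.64 CPM (median 1.15), a log2 fold change of -0.85 ± 0.25. Ccna2, the A-type cyclin, had 1.88 to 4.78 CPM (median 2.48) and 0.63 to 3.17 CPM (median 1.28), a log2 fold change of -0.77 ± 0.31 with an adjusted p of 0.042 in edgeR. The calls of all 3 were lost with limma voom and sample quality weights, at adjusted p-values of 0.139 for Cdk1, 0.051 for Tpx2 and 0.328 for Ccna2. That of Ccna2 was also lost with the replicate block (0.065) and on leaving out any of 7 libraries (in kidney Arg/Arg 2 and 3 and Trp/Trp 1 and 2, in F4/80+ preparations Arg/Arg 2 and 3 and Trp/Trp 1), with adjusted p-values of 0.051 to 0.111. Ccnb1, the cyclin partner of Cdk1, had a log2 fold change of -0.71 ± 0.43 and Top2a of 0.44 ± 0.26, and neither passed. Mki67 was thus called higher and Cdk1 lower over the same libraries, while the single libraries of the sample types overlapped for both genes.

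**Figure D5:**
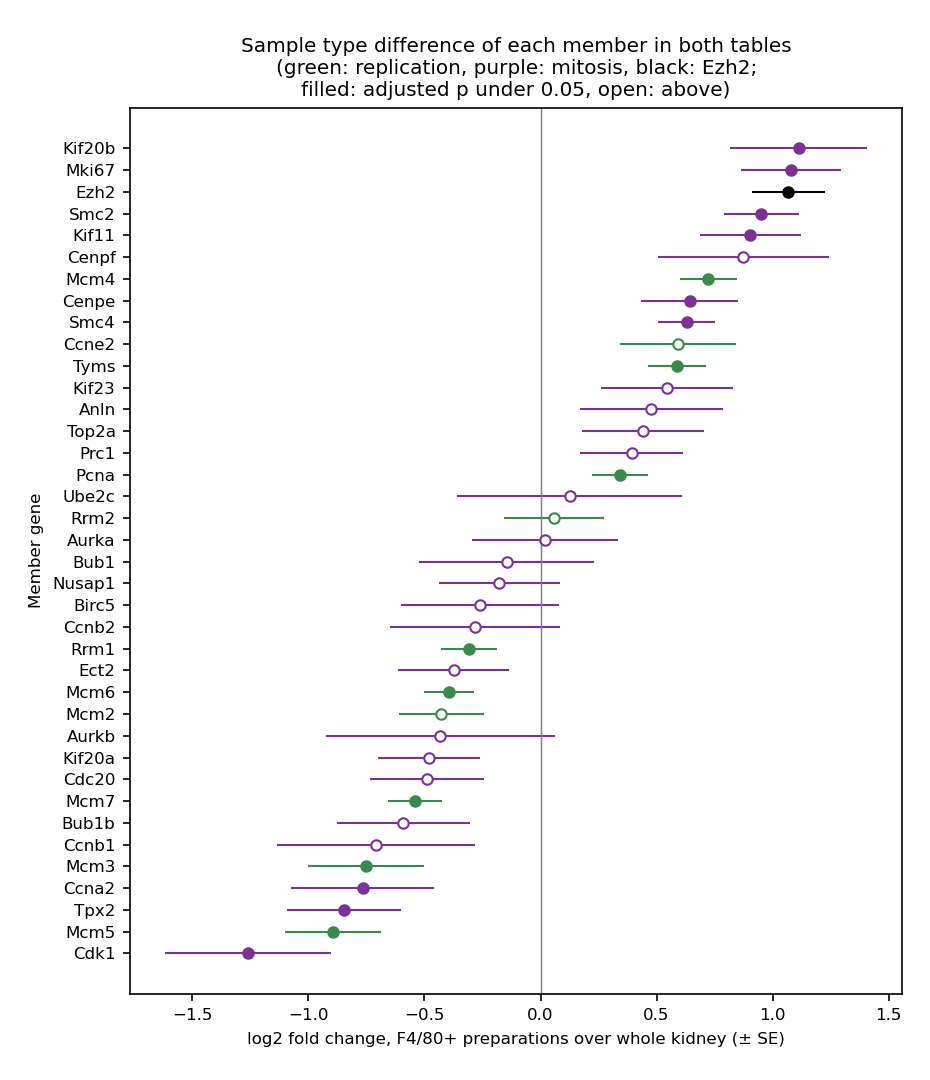
log2 fold change of F4/80+ preparations over whole kidney with its SE for the 38 members in both tables, ordered by size and coloured by role. Filled points have an adjusted p under 0.05 in edgeR: 10 lie above 0 and 8 below 0, and both roles appear on both sides.

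Ezh2, the methyltransferase of the Polycomb repressive complex, had the smallest p of all members between sample types. It had 9.01 to 10.7 CPM in kidney (median 9.69) and 12.8 to 27.0 CPM in F4/80+ preparations (median 18.9), which did not overlap. Its log2 fold change was 1.07 ± 0.16, with an adjusted p of 5.2e-05 in edgeR. Members called higher had a median exon length of 6384 bases and those called lower of 4546 bases, beside 5286 and 4242 bases for all genes called higher and lower. The part of length was not tested. By promoter, E2F cores were in 2 of 8 promoters of members called higher and in 7 of 7 of members called lower, and CHR in 5 of 8 and 2 of 7. E2F cores were in 9.57% of all promoters and in 63.6% of those of replication members. The 7 promoters belong to 6 genes, since Mcm7 has more than 1 start, and 5 of the 6 are replication members (Mcm3, Mcm5, Mcm6, Mcm7 and Rrm1). The promoters of these 5 are also counted in the 63.6%, so that share is not a separate comparison. Tpx2 and Ccna2, also called lower, were not matched. The sequences of Mcm5, Mcm6 and Cdk1 shown above are among those of genes called lower.

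Whether the genotype difference varied between sample types was tested with an interaction term, which no member passed. In edgeR this term, the log2 fold change in F4/80+ preparations minus that in kidney, called 0 of 38 members and no other gene of 13578 (0%), and DESeq2 called 0 members and 7 genes. With DESeq2, 3 of 38 had an unadjusted p under 0.05, beside 8.83% of all genes. In edgeR there were 2 of 38, beside 6.78% of all genes. They were Prc1 (1.14 ± 0.44) and Cdk1 (1.58 ± 0.73), both with an adjusted p of 0.706 in edgeR. The genotype log2 fold changes of Cdk1 were 0.21 in kidney and 1.78 in F4/80+ preparations. Without Arg/Arg F4/80+ replicate 1, 580 of 13701 genes (4.23%) were called in the interaction, and 2 of 38 members were among them: Nusap1 (-1.44 ± 0.28, adjusted p = 0.024 in edgeR) and Kif23 (1.75 ± 0.38, adjusted p = 0.033 in edgeR). Kif23 had 28.1, 6.19 and 7.34 CPM in Arg/Arg and 20.2, 23.5 and 15.8 CPM in Trp/Trp F4/80+ libraries, so the library left out was the highest.

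The balance of replication against mitosis was followed by the log2 ratio of their summed CPM in each library, without a test, since the members were chosen. In kidney it was 0.66, 0.50 and 0.26 in Arg/Arg replicates 1, 2 and 3 and 0.40, 0.45 and 0.59 in Trp/Trp replicates 1, 2 and 3. The group means were 0.48 ± 0.20 and 0.48 ± 0.10 (SD, n = 3). The lowest values belonged to Arg/Arg replicate 3 and Trp/Trp replicate 1, the libraries with the highest mitosis members. In F4/80+ preparations the ratio was 0.19, -0.08 and -0.57 in Arg/Arg and 0.34, -0.09 and 0.09 in Trp/Trp libraries, with means of -0.15 ± 0.38 and 0.11 ± 0.22 (SD, n = 3). The difference of 0.27 between these means was 0.06 on leaving out Arg/Arg replicate 3. Over genotypes it was 0.48 ± 0.14 in kidney and -0.02 ± 0.31 in F4/80+ preparations (SD, n = 6). A highly expressed gene weighs most in such a sum. Smc4 made up 26.8 ± 3.34% of the mitosis sum in kidney and 28.4 ± 2.25% in F4/80+ preparations (SD, n = 6). In Arg/Arg replicate 3 of the F4/80+ preparations, Kif20b had 67.1 and Smc4 62.6 of the 216 CPM of the mitosis members. As a mean of log2(CPM + 0.1), where each gene counts equally, the difference of F4/80+ preparations from kidney was -0.13 in place of -0.50. With only the members that had at least 10 counts in every library it was -0.64. On the log2(CPM + 0.1) scale the genotype difference in F4/80+ preparations turned its sign, to -0.13 from 0.27.

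Other genes of the pathway were counted in lists that do not contain the members. Of 28 other replication genes (origin licensing, polymerases, clamp loading and E2F1), 0 of 28 tested in kidney and 0 of 25 in F4/80+ preparations were called between genotypes. In kidney 1 had an unadjusted p under 0.05, beside 5.71% of all genes: Gins3, a subunit of the GINS replication complex (0.46 ± 0.19). Of 40 other mitosis genes, 0 of 39 and 0 of 26 were called. At an unadjusted p under 0.05 there were 1 and 2, beside 5.71% and 8.04% of all genes. They were the kinesin gene Kif15 in kidney (0.64 ± 0.27), and in F4/80+ preparations Spc24 and Cdc25b, a phosphatase that activates Cdk1 (0.75 ± 0.33). Spc24, a kinetochore gene, had 51.3 ± 85.1 CPM in Arg/Arg and 2.16 ± 0.42 CPM in Trp/Trp F4/80+ preparations (SD, n = 3), so that its log2 fold change of -4.78 ± 1.40 came with an SD larger than the mean. The median log2 fold changes of the other mitosis genes were 0.14 in kidney and 0.21 in F4/80+ preparations, beside 0.21 and 0.19 for the mitosis members. Those of the other replication genes were -0.020 and -0.025, beside 0.01 and 0.24 for the replication members. In the sample type comparison 11 of 27 other replication genes and 10 of 33 other mitosis genes were called, beside 64.3% of all genes. Pttg1, the securin that guards sister chromatid cohesion, was higher in F4/80+ preparations (1.43 ± 0.10), and so was Dlgap5, a spindle assembly gene (2.81 ± 0.38). Of the other replication genes called, 6 were higher and 5 lower, and of the other mitosis genes 6 were higher and 4 lower. E2f1 was lower (-1.44 ± 0.27), while Rfc4 (0.82 ± 0.15) and Orc1 (1.71 ± 0.38) were higher.

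Of 11 genes for D-type cyclins, G1 kinases and pocket proteins, 9 were called between sample types, and of 11 inhibitors of the cycle 8 were called, beside 64.3% of all genes. Cdk6, a kinase of G1, was higher in F4/80+ preparations, at 37.6 ± 4.04 and 32.8 ± 2.39 CPM in Arg/Arg and Trp/Trp kidneys and 119 ± 9.73 and 112 ± 13.2 CPM in Arg/Arg and Trp/Trp F4/80+ preparations (SD, n = 3). This was a log2 fold change of 1.84 ± 0.10. Btg2, an antiproliferative gene that cells induce under stress, had 34.1 ± 2.69 and 34.2 ± 5.11 CPM in kidney and 454 ± 217 and 718 ± 206 CPM in F4/80+ preparations, a log2 fold change of 4.17 ± 0.20. Cdkn1b, the inhibitor p27, was lower (-1.40 ± 0.12), and so was the D-type cyclin gene Ccnd3 (-0.83 ± 0.10). Between genotypes, 0 of 11 were called in either list and either sample type. An unadjusted p under 0.05 was found for Cdk6 in kidney, Ccnd1 in F4/80+ preparations and Cdkn1a in both. Among all genes 5.71% had this in kidney and 8.04% in F4/80+ preparations. Cdk6 had a log2 fold change of -0.21 ± 0.09 in kidney. Ccnd1, a D-type cyclin gene, had 84.3 ± 25.5 CPM in Arg/Arg and 148 ± 22.5 CPM in Trp/Trp F4/80+ preparations, a log2 fold change of 0.70 ± 0.22 (unadjusted p = 0.0076, adjusted p = 0.605 in edgeR). Cdkn1a, which encodes the inhibitor p21, had 36.5 ± 5.07 CPM in Arg/Arg and 27.1 ± 7.10 CPM in Trp/Trp kidneys, a log2 fold change of -0.44 ± 0.16. In F4/80+ preparations it had 44.9 ± 24.0 and 90.1 ± 20.8 CPM, a log2 fold change of 0.90 ± 0.33. The unadjusted p-values of Cdkn1a were 0.023 and 0.017 and the adjusted ones 0.843 and 0.605 in edgeR.

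In the authors' deposited table, 35 of the 40 members in kidney and 2 of the 38 in F4/80+ preparations carried an adjusted p, and none was under 0.05. The smallest in kidney was that of Kif20b, at 0.295 in the authors' deposited table.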

How the data were processed

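The 12 libraries were matched to count columns by the short names in their titles. Per the submitters' processing notes, STAR, DRAGEN, DESeq2 and the build mm10 were used, with versions not given. The annotation release and the strand setting were not given in the sources used here. Member coordinates matched GENCODE release 21 of mouse on GRCm38 for all 40. The authors deposited a table per sample type with raw counts per gene and library. It also held the authors' own comparison: the sign of the deposited log2 fold change was set so that positive means higher in Trp/Trp, and a deposited p-value, raw or adjusted, was used only where named.

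Counts were fitted with edgeR 4.0.16 in R 4.3.3 (filterByExpr with minimum count 10 and minimum total 15, TMM, quasi-likelihood test, Benjamini-Hochberg adjustment over all genes tested, threshold 0.05). Kidney and F4/80+ tables were fitted apart. Sample type and interaction used all 12 libraries and the 13733 shared genes, with 4 groups as the only term. The SE of a log2 fold change was its size divided by the square root of F. CPM (counts per library scaled to a total of 1000000) were computed over those genes. Exon lengths and overlaps came from GENCODE, and promoters from RefSeq. DESeq2 1.42.0, limma 3.58.1 voom, other scalings, no filter, nuclear genes only, a replicate block and leaving out each library were alternatives. The procedure was tested on simulated data. The labels call replicates biological, and p-values measure the spread between these samples.

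Members, lists and tests were chosen with earlier results of these data known. Described in full were, per comparison, the 4 members of smallest p in each direction, those called, and Mki67, Top2a, Cdk1, Ccnb1, Mcm2, Mcm5, Pcna and Rrm2, with the 3 genes of smallest p of each other list as candidates. Values of Anln, Cenpf, Kif23 in F4/80+ preparations, Mcm4 in the F4/80+ genotype comparison and per-length levels were added after values were seen. The marker lists not printed for both sample types in the text gave these summed CPM ranges in kidney and F4/80+ libraries: monocyte and neutrophil 12.4 to 27.2 and 4.3 to 8.6, erythroid 23.0 to 62.0 and 5.3 to 13.1, distal nephron 8964 to 9587 and 6499 to 22065, endothelial 424 to 557 and 130 to 284, and kidney injury 690 to 938 and 986 to 3029. Cd3e and Adipoq were not in the F4/80+ table. Single values of some listed genes are not reported here.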

Additional observations from a re-analysis of the deposited data

How the results depend on the processing

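Of 383 values of single members under alternatives that kept every library, 371 kept their direction and their side of the threshold, and of 599 values on leaving out a library, 553 did. No member was called between genotypes in either sample type under any alternative. The number of members called between sample types was 15 to 21, beside 59.8 to 67.6% of all genes. The count of members with an unadjusted p under 0.05 was a measure added after the data were seen. In kidney it was 2 with library totals alone and 4 with DESeq2, beside 5.54% and 5.12% of all genes. On leaving out a kidney library it was 1 to 7, beside 3.37 to 8.58%. In F4/80+ preparations it was 1 to 8 on leaving out a library, beside 2.31 to 17.5% of all genes. Members called in the interaction numbered 0 to 2 on leaving out a library, beside 0 to 4.23% of all genes. As means of log2(CPM + 0.1), the replication to mitosis differences were -0.16 in kidney genotype, -0.13 in F4/80+ genotype and -0.13 in sample type, against 0.0066, 0.27 and -0.50 as ratios of sums. A pairing by replicate number was looked for in deviations from the group mean. Same-numbered libraries of the genotypes correlated at -0.08, -0.02 and -0.01 in kidney and at -0.31, -0.49 and 0.18 in F4/80+ preparations. Between kidney and F4/80+ preparations the same-numbered values were -0.07, -0.08 and -0.07 in Arg/Arg and -0.13, -0.06 and 0.04 in Trp/Trp. Differently numbered F4/80+ libraries reached 0.48. With 3 libraries per group these values cannot exclude a pairing. With the replicate block, 3 members had an unadjusted p under 0.05 in the F4/80+ genotype comparison, beside 4.6% of all genes. Between sample types 16 members were called with this block, without Rrm1 and Ccna2, beside 62.1% of all genes.

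The direction of some values turned. Rrm2 was at -0.053 between sample types with library totals alone, and Mcm2 at -0.18 in the interaction with limma voom. On leaving out a library, kidney genotype values ran from -0.029 to 0.58 for Top2a, -0.081 to 0.72 for Cdk1, -0.25 to 0.039 for Mcm2 and -0.16 to 0.15 for Rrm2. F4/80+ genotype values ran from -0.074 to 0.50 for Mcm2 and -0.048 to 0.25 for Pcna, and the sample type value of Rrm2 from -0.12 to 0.17. Interaction values ran from -1.22 to 0.020 for Kif20b (-0.84 over all libraries), -0.0069 to 0.61 for Mki67, -0.23 to 0.57 for Top2a, -0.41 to 0.67 for Ccnb1 and -0.075 to 0.23 for Pcna. The cause was not tested. Counts were few for some members of the F4/80+ preparations, such as 1 to 17 per library for Cdk1.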
